A study of Mus musculus with 25 samples.

Results

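LysoMac, the lysozyme-rich macrophages of the mouse Peyer's patch, were compared with the CD11b+ conventional dendritic cells (cDC) of the same tissue in untreated mice. The comparison used 11 of the 25 arrays of the series: 3 of TIM-4- LysoMac, 3 of TIM-4+ LysoMac and 5 of CD11b+ cDC. These are the arrays whose titles name one of these cell types and no treatment with R848, a ligand of TLR7 given to other mice of the series. All groups came from wild-type female C57BL/6 mice aged 6 to 8 weeks, and each replicate pooled the Peyer's patches of 42 mice, per the labels. The LysoMac gate took cells that stained for CD4, BST2 and SIRPα, strongly for CD11c and weakly for MHC class II, and split them by TIM-4. The CD11b+ cDC gate took cells with high CD11c, MHC class II, SIRPα and an intermediate level of CD11b that lacked BST2, CD4 and CD8α. The labels place TIM-4- LysoMac mainly in the subepithelial dome, and TIM-4+ LysoMac and CD11b+ cDC mainly in the interfollicular T cell zone, so cell type and place differ together for the TIM-4- cells.

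Peyer's patches are lymphoid follicles in the wall of the small intestine that sample the gut lumen through M cells of their epithelium. Macrophages of the patch take up and degrade particles and dying cells in their lysosomes, a compartment acidified by a proton pump and filled with hydrolases. Conventional dendritic cells carry antigen to T cells, which takes MHC class II, co-stimulatory ligands and the chemokine receptor CCR7.

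Every array measured the RNA of sorted cells as log2 signals. A row of the deposited table was named only after the row order of these arrays had been matched to that of the R848 arrays, which the deposited row names fit. As deposited, levels in the same row correlated at only 0.0755 to 0.0952 between these arrays and the R848 arrays. After the match, the mean levels of untreated and R848 CD11b+ cDC correlated at 0.966 over the accepted rows. The match pairs rows by these same means, so this value was largely built in. Of the accepted rows 1.3% lay over 2 log2 units from their partner, which is no error rate of the names. A single gene's name is less certain than the behaviour of a list. The match gave 16870 genes with a value. Values are log2 levels. A group level with ± is the mean ± SD over its arrays, for LysoMac over all 6. Differences are LysoMac minus CD11b+ cDC in log2 units ± the standard error of a limma fit over 6 and 5 arrays. A gene was called where its p, adjusted over all these genes by the Benjamini-Hochberg method, was below 0.05. Low levels limit what a difference can show: 95% of olfactory and vomeronasal receptor genes, which these cells are not known to use, had means below 4.17, taken here as the level of unexpressed genes. Where every array of the lower group lay below 4.17, the size of the difference with those arrays set to 4.17 follows the measured one after the words "at least", and no difference is given where both means lay below. This held for 14 of the described genes, 2 of them with both means below. In 26 others some arrays of the lower group lay below 4.17, and setting them to it changed the difference by 0.24 or less except in Atp6v0d2 (0.36). Orders of genes are those of the measured differences. Of the 188 genes selected for description, 186 were called. The 159 called genes given without a p had adjusted p-values of at most 0.000903 for LysoMac against CD11b+ cDC by limma. This bound does not cover differences between TIM-4+ and TIM-4- LysoMac, for which called genes had adjusted p-values up to 0.0363 by limma.

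The arrays of CD11b+ cDC were not alike. Replicates 1 to 3 correlated with each other at 0.988 to 0.992 over all genes and replicates 4 and 5 at 0.994, but the pairs across these subsets correlated at 0.978 to 0.982. The 6 LysoMac arrays correlated with each other at 0.984 to 0.994 and with CD11b+ cDC at 0.924 to 0.944. Between the means of replicates 4 and 5 and of replicates 1 to 3, 241 genes (1.43%) differed at least 2-fold, 151 of them higher in replicates 4 and 5. The labels give no batch. The p-values rest on the spread between pools of mice within groups, which in CD11b+ cDC includes the gap between these subsets. Of the 1274 genes called at least 2-fold apart between LysoMac and CD11b+ cDC, all 1274 had the same direction against either subset, and 1252 were also called against both. These genes were chosen with both subsets in the fit, so the shared direction was partly built in.

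Over all 16870 genes, 1929 were called higher in LysoMac (11.4%) and 2276 lower (13.5%). The list counts below are to be read beside these shares, and several of the smaller counts lie near them. By at least 2-fold, 689 were higher (4.08%) and 585 lower (3.47%). Measured differences of 16-fold or more were called for 38 genes higher and 29 genes lower in LysoMac. The median difference of all genes was -0.01. With replicates 1 to 3 of CD11b+ cDC left out, 3624 genes were called lower, and with replicates 4 and 5 left out 1882.

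**Figure D1:**
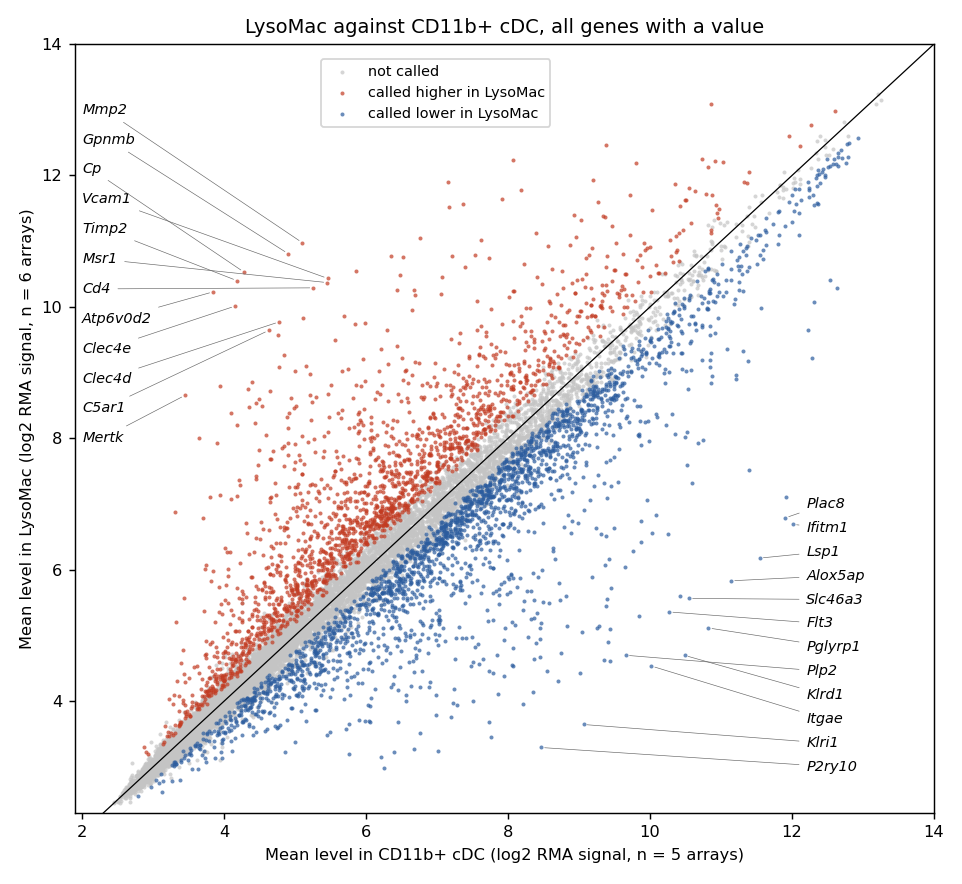
Mean level of each gene in CD11b+ cDC (horizontal axis, log2 signal, 5 arrays) against its mean level in LysoMac (vertical axis, log2 signal, 6 arrays), with genes called higher in LysoMac in red, genes called lower in blue and others in grey; the line marks equal levels. The 12 genes with the largest measured difference in each direction are named, and all of these lie at least 4.91 log2 units from the line.

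Among the genes of the sort, Cd4 and Bst2 followed the gates. Cd4, the co-receptor used to sort LysoMac, was at 5.14, 4.98, 5.73, 5.01 and 5.42 in the 5 CD11b+ cDC arrays, 9.64, 10.11 and 10.05 in TIM-4- LysoMac and 10.64, 10.69 and 10.61 in TIM-4+ LysoMac. All LysoMac arrays lay above all CD11b+ cDC arrays, a difference of 5.03 ± 0.14 (32.7-fold). Bst2, an interferon-induced tether of virus particles, was higher by 2.29 ± 0.17, and Sirpa, an inhibitory receptor that both gates required, by 1.13 ± 0.11. Itgax, which codes for CD11c, was similar in level, at 10.54 ± 0.24 in CD11b+ cDC and 10.41 ± 0.22 in LysoMac (-0.13 ± 0.11, adjusted p = 0.448 by limma). Itgam, which codes for CD11b, was at 7.07 ± 0.28 in CD11b+ cDC, 8.42 ± 0.07 in TIM-4- LysoMac and 7.03 ± 0.16 in TIM-4+ LysoMac. Its difference of 0.65 ± 0.12 (adjusted p = 0.00179 by limma) thus rested on the TIM-4- arrays, since the TIM-4+ and CD11b+ cDC arrays overlapped. Timd4, the phosphatidylserine receptor TIM-4, was at 7.76, 7.42, 8.59, 7.08 and 7.57 in the 5 CD11b+ cDC arrays, 5.15, 5.29 and 6.56 in TIM-4- LysoMac and 10.80, 10.76 and 10.80 in TIM-4+ LysoMac. The TIM-4+ arrays were the highest and the TIM-4- arrays the lowest, with CD11b+ cDC between them, so the mean of both LysoMac groups was not called against CD11b+ cDC (0.54 ± 0.29, adjusted p = 0.216 by limma). Cd8a and Cd8b1 had no matched row. The gates can set the differences of Cd4 and Bst2, and that of Timd4 between the LysoMac groups, since cells were selected on these proteins. Both gates took cells with SIRPα and high CD11c, and a level of CD11b is given only for the cDC gate. The part of the gates in the differences of Sirpa, Itgax and Itgam was not tested.

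The 12 genes with the largest measured differences among those higher in LysoMac had varied roles. Atp6v0d2, a subunit of the vacuolar proton pump with restricted expression in macrophages and osteoclasts, was at 3.81, 3.93, 3.66, 3.49 and 4.32 in the 5 CD11b+ cDC arrays, 9.74, 9.95 and 9.78 in TIM-4- LysoMac and 10.32, 10.66 and 10.91 in TIM-4+ LysoMac. The groups did not overlap, and the measured difference was 6.38 ± 0.15. Since 4 of the 5 CD11b+ cDC arrays lay below 4.17, it was 6.02, or at least 65.1-fold, with these set to that level, beside 6.15 for Cp and 6.17 for Timp2 treated alike, so the order of these 3 genes is not settled. Cp, the copper-carrying ferroxidase ceruloplasmin, was at 4.11, 4.08, 3.82, 4.71 and 4.67 in the 5 CD11b+ cDC arrays, 10.35, 10.45 and 10.27 in TIM-4- LysoMac and 10.76, 10.68 and 10.67 in TIM-4+ LysoMac, and the difference was 6.25 ± 0.15. Timp2, an inhibitor of matrix metalloproteinases that also takes part in activating Mmp2, was at 4.21, 4.05, 4.32, 4.29 and 4.03 in the 5 CD11b+ cDC arrays, 10.01, 10.27 and 10.18 in TIM-4- LysoMac and 10.71, 10.59 and 10.64 in TIM-4+ LysoMac. Mmp2, the gelatinase A, was at 4.88, 4.91, 4.84, 5.56 and 5.30 in the 5 CD11b+ cDC arrays, 11.07, 11.20 and 10.81 in TIM-4- LysoMac and 11.06, 10.98 and 10.76 in TIM-4+ LysoMac. In both genes all LysoMac arrays lay above all CD11b+ cDC arrays, by 6.22 ± 0.08 for Timp2 and 5.88 ± 0.14 for Mmp2. The next genes were Gpnmb, a glycoprotein of lysosomes and melanosomes (5.91 ± 0.24), Clec4e, the receptor Mincle for mycobacterial glycolipid (5.86 ± 0.11), and Mertk, a receptor for dying cells (5.21 ± 0.09, at least 4.48). C5ar1, the receptor of the complement fragment C5a (5.01 ± 0.18), Clec4d, a lectin receptor paired with Mincle (5.00 ± 0.31), Vcam1, an adhesion ligand (4.98 ± 0.10), and the scavenger receptor Msr1 (4.92 ± 0.23) completed the 12 with Cd4. Clec4d and Gpnmb were among the genes that differed within CD11b+ cDC, with means of 4.21 and 4.44 in replicates 1 to 3 and of 5.62 and 5.58 in replicates 4 and 5.

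The 12 genes with the largest measured differences among those lower in LysoMac were likewise of varied roles. Klrd1, the CD94 chain of an inhibitory receptor pair, was at 10.37, 10.43, 10.48, 10.63 and 10.52 in the 5 CD11b+ cDC arrays, 4.29, 5.95 and 4.82 in TIM-4- LysoMac and 4.17, 4.56 and 4.38 in TIM-4+ LysoMac, a difference of -5.79 ± 0.23. Its TIM-4- arrays were spread over a wider range than the others, but no LysoMac array came near CD11b+ cDC. Klri1, a receptor of the same family, was lower with a difference of -5.42 ± 0.11, at least 4.89. Pglyrp1, a secreted protein that binds bacterial peptidoglycan, was at 10.64, 10.56, 10.35, 11.36 and 11.20 in the 5 CD11b+ cDC arrays, 5.33, 4.83 and 5.65 in TIM-4- LysoMac and 4.59, 5.25 and 5.03 in TIM-4+ LysoMac. It was lower with a difference of -5.71 ± 0.21, or 52.3-fold. Itgae, the integrin chain CD103 that binds E-cadherin, was at 10.02 ± 0.11 in CD11b+ cDC and 4.53 ± 0.31 in LysoMac (-5.48 ± 0.09). Flt3, the growth factor receptor on which dendritic cells depend, was at 10.39, 10.53, 10.15, 10.17 and 10.11 in the 5 CD11b+ cDC arrays, 5.61, 5.51 and 5.64 in TIM-4- LysoMac and 5.27, 4.86 and 5.25 in TIM-4+ LysoMac, and the difference was -4.91 ± 0.10. The others were Lsp1, an actin-binding protein of leukocytes (-5.37 ± 0.21), Ifitm1, an interferon-induced membrane protein (-5.32 ± 0.12), Alox5ap, which presents arachidonic acid to 5-lipoxygenase (-5.31 ± 0.18), the purinergic receptor family member P2ry10 (-5.17 ± 0.12, at least 4.29), Plac8 (-5.12 ± 0.46), the lysosomal solute carrier Slc46a3 (-4.99 ± 0.15) and Plp2 (-4.96 ± 0.26). The largest adjusted p of these 24 genes was 4.59e-06 in the limma fit. Of all genes, 8.25% lay higher and 9.54% lower in LysoMac with no overlap between the arrays.

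NK cell and ILC markers, a list of other cells, moved in the same direction as Klrd1 and Klri1. Of 9 measured markers 5 were lower in LysoMac and 0 higher, with Klrk1, the activating receptor NKG2D, at -2.76 ± 0.14, at least 2.27, and Il7r, the receptor of interleukin 7, at -2.56 ± 0.18. The mean level of the list was 5.12 to 5.40 in CD11b+ cDC replicates 1 to 3, 5.62 to 5.75 in replicates 4 and 5 and 4.27 to 4.77 in TIM-4- and 4.00 to 4.42 in TIM-4+ LysoMac. The median difference of -1.16 was -0.54 without CD11b+ cDC replicates 4 and 5 and -1.62 without replicates 1 to 3. Without replicates 4 and 5, and likewise without CD11b+ cDC replicate 5 or TIM-4- LysoMac replicate 1, the lower members numbered 3. The defining receptors Ncr1 and Klrb1c were at 3.34 and 3.17 in CD11b+ cDC and at 3.22 and 3.16 in LysoMac, below 4.17. In sorted bulk cells, fewer cells of a type and less RNA per cell cannot be told apart. The part of NK and innate lymphoid cells in the differences of Klrd1 and Klri1 was not tested.

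Most but not all of the listed macrophage markers were higher in LysoMac. The list was chosen with earlier results of these data known, so its count describes the cells and does not test their label. Of 21 measured macrophage genes, 14 were higher in LysoMac and 0 lower (by limma; 0 at an unadjusted p below 0.05), with a median difference of 1.01 against -0.01 over all genes. Mertk was at 3.31, 3.47, 3.34, 3.34 and 3.76 in the 5 CD11b+ cDC arrays, 8.39, 8.58 and 8.41 in TIM-4- LysoMac and 8.93, 8.71 and 8.90 in TIM-4+ LysoMac. Besides Mertk, C5ar1 and Msr1, the largest difference was that of Axl, a second receptor for dying cells (4.42 ± 0.13). Csf1r, the receptor on which macrophages depend, was high in both groups, at 9.72 ± 0.16 in CD11b+ cDC and 11.71 ± 0.11 in LysoMac. Several markers of resident macrophages were at or near the level of unexpressed genes in both groups: Fcgr1, the receptor CD64, at 4.16 and 4.30, Cd163 at 3.62 and 3.69, Siglec1 at 3.93 and 3.99, and Mrc1, the mannose receptor, at 3.17 and 3.16 in CD11b+ cDC and LysoMac. Adgre1, the antigen F4/80, was higher by 0.61 ± 0.13 (adjusted p = 0.00397 by limma) and Cd68 by 0.62 ± 0.12 (adjusted p = 0.0023 by limma).

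**Figure D2:**
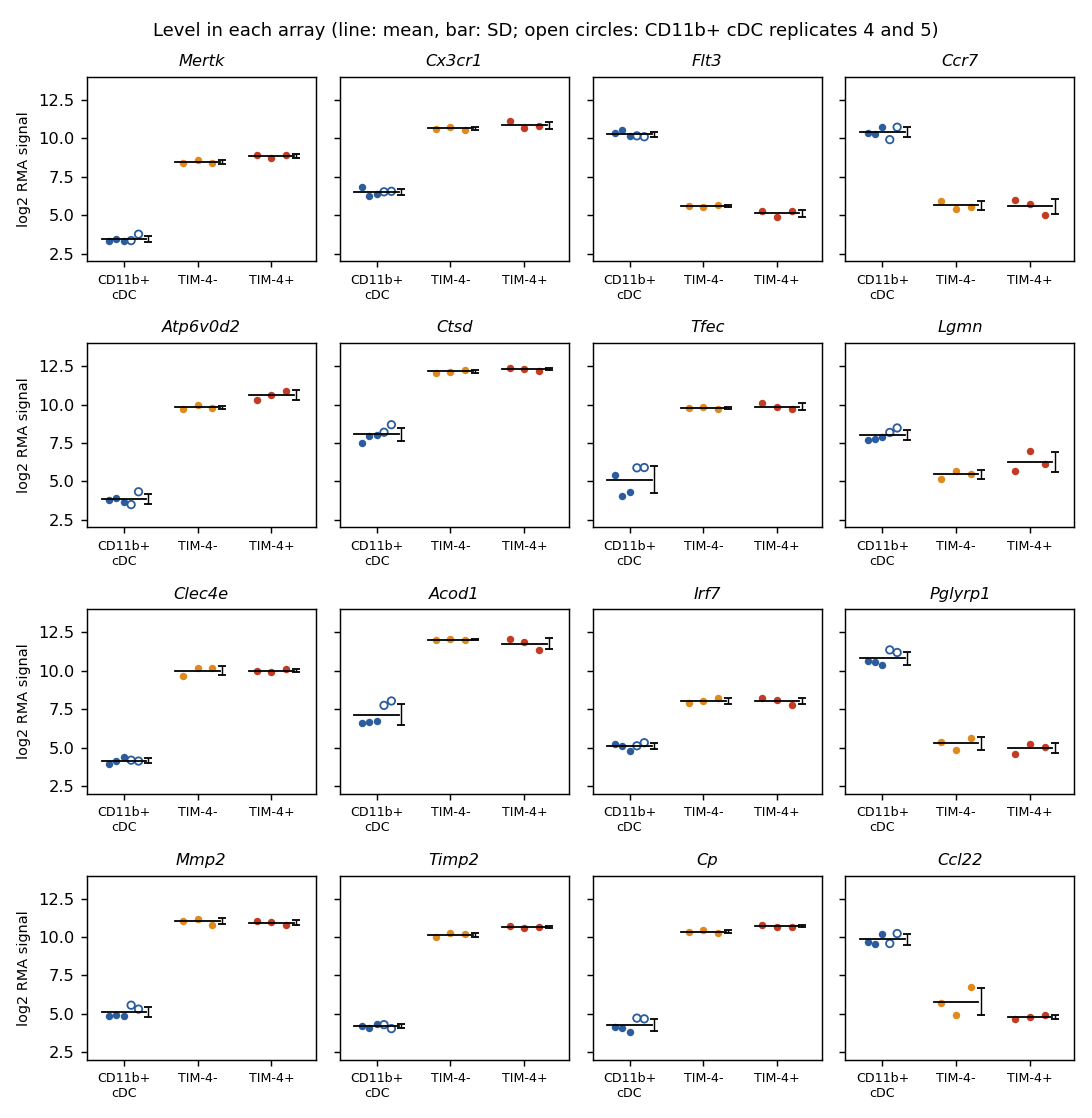
Level of 16 genes in each of the 11 arrays (log2 signal), with CD11b+ cDC in blue, TIM-4- LysoMac in orange and TIM-4+ LysoMac in red; lines mark group means, bars 1 SD, and open circles CD11b+ cDC replicates 4 and 5. Mertk, Cx3cr1, Atp6v0d2, Ctsd, Tfec, Clec4e, Acod1, Irf7, Mmp2, Timp2 and Cp are higher in every LysoMac array than in every CD11b+ cDC array, and Flt3, Ccr7, Lgmn, Pglyrp1 and Ccl22 lower.

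Genes of dendritic cell identity were lower in LysoMac. Of 17 measured genes shared by conventional dendritic cells, 14 were lower and 1 was higher (median -1.76), and of 17 genes of the CD11b+ cDC lineage, cDC2, 13 were lower and 2 higher (median -2.17). Ccr7, the homing receptor for lymph node chemokines, was at 10.38, 10.32, 10.74, 9.93 and 10.74 in the 5 CD11b+ cDC arrays, 5.95, 5.43 and 5.52 in TIM-4- LysoMac and 5.96, 5.75 and 5.02 in TIM-4+ LysoMac. It was lower with a difference of -4.82 ± 0.20, with Kmo, an enzyme of tryptophan breakdown, at -4.73 ± 0.17 and the surface protein Adam23 at -4.14 ± 0.11. Irf8, a transcription factor of monocytes and cDC1, went the other way and was higher in LysoMac by 1.86 ± 0.13. Among cDC2 genes the largest decreases were those of the lectin receptor Clec4a4 (-3.75 ± 0.18), Cd7 (-3.60 ± 0.30), the adhesion molecule Epcam (-3.55 ± 0.13) and the lymphotoxin chain Ltb (-3.45 ± 0.19). Zeb2, a repressor needed for the cDC2 and macrophage lineages, was higher (1.69 ± 0.10), as was Itgam. The cDC1 list was split, with 4 of 12 higher and 4 lower. P2ry14, a receptor for UDP sugars (4.41 ± 0.24), and Tlr12, a sensor of profilin (2.55 ± 0.17), were higher, and Itgae, Wdfy4, which is needed for cross-presentation (-2.92 ± 0.10), and the transcription factor Batf3 (-1.71 ± 0.11) were lower.

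Monocyte genes were split as well, with 3 of 11 higher and 3 lower. Ccr2, the receptor by which monocytes leave the bone marrow, was at 4.85, 4.90, 4.65, 5.14 and 5.39 in the 5 CD11b+ cDC arrays, 8.61, 8.44 and 8.41 in TIM-4- LysoMac and 8.41, 8.43 and 8.45 in TIM-4+ LysoMac. It was higher in all 6 LysoMac arrays (3.47 ± 0.12), while Nr4a1, the factor of patrolling monocytes and an immediate early gene (-4.50 ± 0.19), Klf4 (-2.17 ± 0.21) and Plac8 were lower. With genes below the level of unexpressed ones left out, 5 monocyte genes were called higher.

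Transcription factors of phagocyte lineages differed in both directions. Of 46 measured factors 10 were higher in LysoMac and 25 lower. Tfec, a relative of Mitf found in macrophages, was at 5.40, 4.03, 4.31, 5.88 and 5.90 in the 5 CD11b+ cDC arrays, 9.77, 9.87 and 9.70 in TIM-4- LysoMac and 10.10, 9.84 and 9.69 in TIM-4+ LysoMac. The difference was 4.72 ± 0.33, and Nr1h3, the oxysterol receptor LXRα (3.30 ± 0.21), and Spic, a factor of iron-recycling macrophages (2.92 ± 0.21), followed. Ciita, the switch of class II transcription (-4.13 ± 0.09), Nr4a3 (-4.09 ± 0.11) and Stat4, a mediator of interleukin 12 signalling (-3.72 ± 0.14), had the largest decreases.

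**Figure D3:**
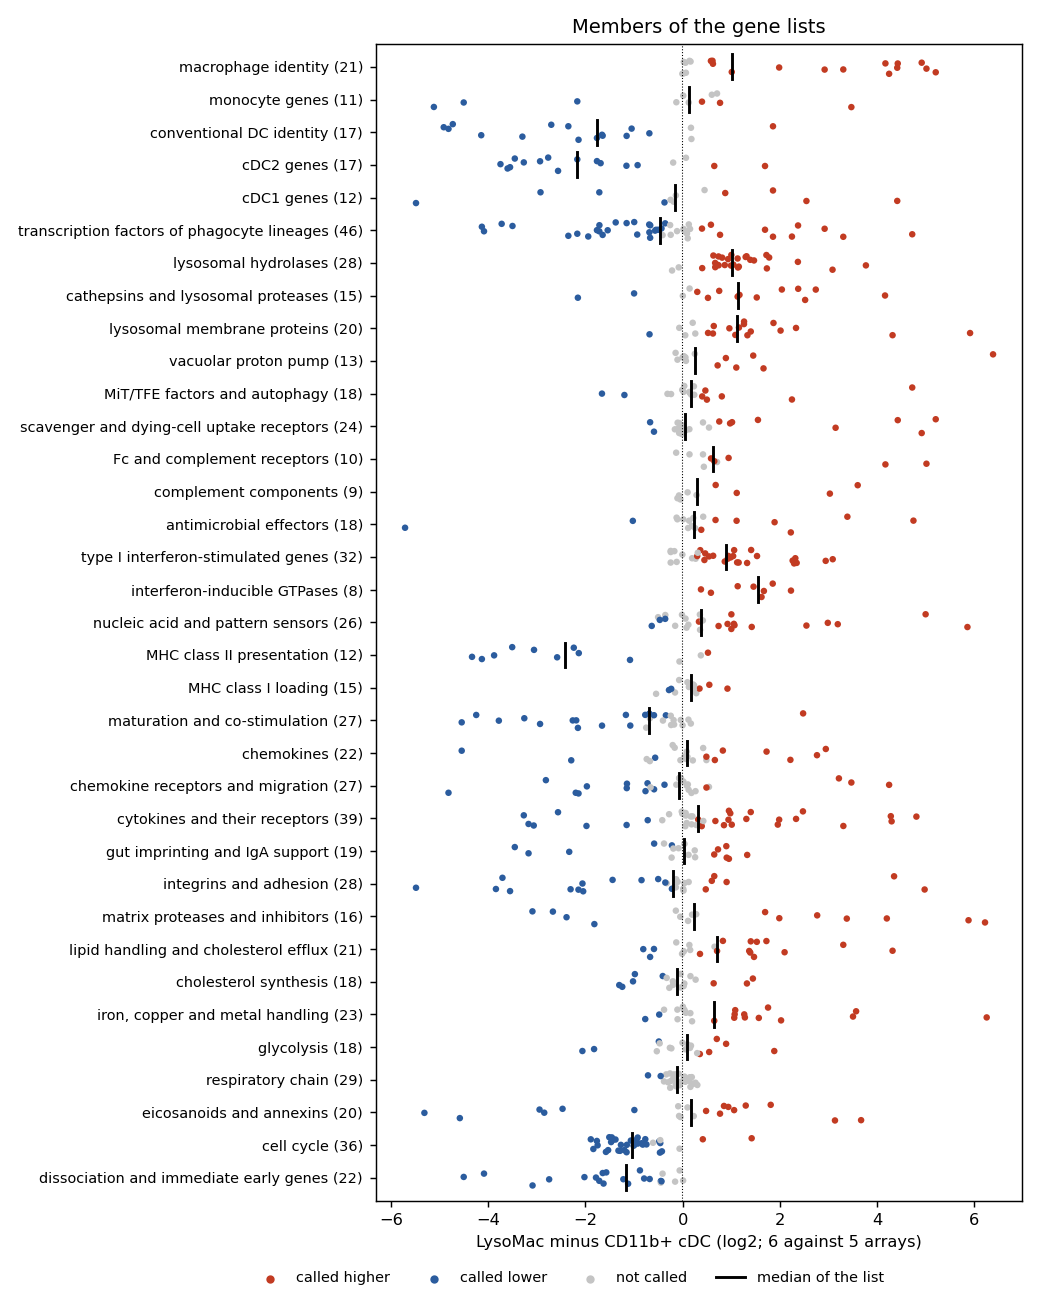
Difference between LysoMac and CD11b+ cDC (horizontal axis, log2) for each measured member of 35 gene lists, with the number of measured members in parentheses; red and blue points were called higher and lower, grey points were not called, black bars mark list medians and the dotted line the median of all genes. Lysosomal and interferon lists lie mostly to the right, and the lists of dendritic cell identity, MHC class II, cell cycle and immediate early genes mostly to the left.

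Most of the listed lysosomal enzymes and membrane proteins were higher in LysoMac. Of 28 measured lysosomal hydrolases 26 were higher and 0 lower (by limma; 0 at an unadjusted p below 0.05), with a median difference of 1.02. Fuca1 (-0.22 ± 0.12) and Ids (-0.08 ± 0.14) were not called. Hpse, the heparan sulfate cleaving heparanase, was at 5.79, 5.73, 5.90, 6.03 and 6.48 in the 5 CD11b+ cDC arrays, 9.78, 9.81 and 9.72 in TIM-4- LysoMac and 9.91, 9.81 and 9.51 in TIM-4+ LysoMac. The difference was 3.77 ± 0.13, and Galc, which removes galactose from ceramide, was higher by 3.08 ± 0.13, at least 2.61, the acid phosphatase Acp2 by 2.37 ± 0.15 and Gaa, the acid glucosidase that breaks down glycogen, by 1.78 ± 0.13. Against CD11b+ cDC replicates 4 and 5 alone, 24 hydrolases were higher and 2 lower.

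The lysosomal proteases behaved less evenly. Of 15 measured members 11 were higher and 2 lower (median 1.13). Ctsd, the aspartic protease cathepsin D, was at 7.50, 7.97, 8.00, 8.20 and 8.69 in the 5 CD11b+ cDC arrays, 12.09, 12.14 and 12.27 in TIM-4- LysoMac and 12.36, 12.34 and 12.22 in TIM-4+ LysoMac. It was higher by 4.16 ± 0.17, or 17.9-fold, followed by the tripeptidyl peptidase Tpp1 (2.74 ± 0.09), cathepsin F (Ctsf, 2.52 ± 0.15) and Pla2g7, a secreted phospholipase that hydrolyses platelet-activating factor and was listed here though it is no protease (2.38 ± 0.12). Lgmn, the asparaginyl endopeptidase legumain, was at 7.67, 7.78, 7.92, 8.19 and 8.48 in the 5 CD11b+ cDC arrays, 5.14, 5.70 and 5.51 in TIM-4- LysoMac and 5.66, 6.98 and 6.14 in TIM-4+ LysoMac. It was lower in LysoMac with a difference of -2.15 ± 0.23, and all LysoMac arrays lay below all CD11b+ cDC arrays. Cst3, the secreted inhibitor cystatin C, was lower, at 12.09 ± 0.11 in CD11b+ cDC and 11.09 ± 0.15 in LysoMac.

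Of 20 lysosomal membrane proteins 15 were higher and 1 lower (median 1.12). After Gpnmb came Abca1, the cholesterol and phospholipid exporter (4.32 ± 0.10), the amino acid carrier Slc36a1 (2.33 ± 0.19) and Clcn7, a chloride and proton exchanger (2.01 ± 0.14). Abca1 was counted both here and in the list of lipid handling. Slc38a9, the arginine sensor of the mTORC1 pathway, was the 1 lower member (-0.68 ± 0.16, adjusted p = 0.00673 by limma), and its arrays overlapped. The list did not hold Slc46a3, the lysosomal solute carrier described above among the largest decreases in LysoMac. Of 13 proton pump genes 6 were higher and 0 lower (by limma; 0 at an unadjusted p below 0.05). Beside Atp6v0d2, these included Tcirg1 (1.66 ± 0.12) and Atp6v0b (1.45 ± 0.11), which belong to the membrane sector, and the accessory protein Atp6ap2 (1.10 ± 0.09), while the list's median was 0.25. The median was 0.38 without CD11b+ cDC replicates 4 and 5 and 0.06 without replicates 1 to 3, where 1 member was called lower. The lower membrane proteins then numbered 2. The housekeeping counterpart Atp6v0d1 was at 8.12 ± 0.22 in CD11b+ cDC and 8.37 ± 0.23 in LysoMac and was not called (0.25 ± 0.12, adjusted p = 0.168 by limma).

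Among the factors that switch on lysosomal genes and the autophagy machinery, 6 of 18 were higher and 2 lower. Mitf, a basic helix-loop-helix factor, was higher by 2.25 ± 0.14 beside Tfec. The other factors of this family, Tfeb (-0.31 ± 0.12, adjusted p = 0.0733 by limma) and Tfe3 (-0.24 ± 0.13, adjusted p = 0.215 by limma), were not called. Gabarapl2, an ATG8 protein that coats autophagosomes (-1.66 ± 0.16), and Uvrag, a subunit of a lipid kinase complex of endosomes (-1.20 ± 0.08), were lower. Against CD11b+ cDC replicates 4 and 5 alone, 4 of these genes were lower.

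Factors of this family bind an E-box in promoters of lysosomal genes, so the RefSeq promoters of the GRCm38.p6 build, 250 bases before to 50 after the start site, were searched for its 8-letter core, TCACGTGA, which reads the same on both strands. The core was in 1.12% of the promoters of all 27025 genes in the table and in 1.52% of those of the 13261 genes with a value here. It was in 2 of 25 promoters of measured hydrolases, 2 of 12 of proteases, 5 of 19 of membrane proteins, 2 of 9 of proton pump genes and 0 of 16 of the factor and autophagy list. Among members called higher it was in 2 of 23, 2 of 9, 5 of 14, 0 of 4 and 0 of 6. The 3 promoters below belong to the called genes with the largest differences that hold the core, which is in capitals.
Ctsd (chr7:142387778-142388077, minus strand): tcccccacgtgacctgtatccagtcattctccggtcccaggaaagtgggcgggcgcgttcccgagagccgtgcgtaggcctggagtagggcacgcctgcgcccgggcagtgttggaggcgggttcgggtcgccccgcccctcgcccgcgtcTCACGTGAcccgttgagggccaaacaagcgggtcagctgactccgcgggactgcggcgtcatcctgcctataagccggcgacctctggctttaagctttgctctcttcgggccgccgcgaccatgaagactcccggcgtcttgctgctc
Slc36a1 (chr11:55204090-55204389, plus strand): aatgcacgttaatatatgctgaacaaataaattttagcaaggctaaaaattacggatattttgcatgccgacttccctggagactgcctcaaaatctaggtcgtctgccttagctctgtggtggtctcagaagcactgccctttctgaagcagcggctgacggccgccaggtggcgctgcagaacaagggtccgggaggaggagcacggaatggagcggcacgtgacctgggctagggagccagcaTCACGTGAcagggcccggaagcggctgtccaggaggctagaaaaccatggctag
Clcn7 (chr17:25133141-25133440, plus strand): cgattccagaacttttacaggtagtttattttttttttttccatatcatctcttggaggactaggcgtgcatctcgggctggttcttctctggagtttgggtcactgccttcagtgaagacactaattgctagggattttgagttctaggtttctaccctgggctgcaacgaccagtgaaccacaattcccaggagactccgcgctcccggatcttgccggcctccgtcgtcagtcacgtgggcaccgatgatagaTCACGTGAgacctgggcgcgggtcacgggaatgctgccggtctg
The core began at positions -99, -4 and 6 from the start site in Ctsd, Slc36a1 and Clcn7. The promoters of Gpnmb and Hpse did not hold these letters in this window, and Atp6v0d2 was not in the table. A match describes the letters and shows no binding.

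Receptors for uptake were higher in LysoMac for a few strongly different genes. Of 24 scavenger and dying-cell receptors 8 were higher and 2 lower, and the median was 0.05 (0.11 without CD11b+ cDC replicates 4 and 5 and 0.08 without replicates 1 to 3). Msr1 was at 4.92, 4.88, 5.83, 5.36 and 6.27 in the 5 CD11b+ cDC arrays, 10.60, 10.63 and 10.52 in TIM-4- LysoMac and 9.97, 10.10 and 10.39 in TIM-4+ LysoMac. Besides Mertk, Msr1 and Axl, the collectin-like scavenger receptor Colec12 was higher by 3.15 ± 0.11. Scarb1, a receptor for high-density lipoprotein (-0.67 ± 0.13, adjusted p = 0.00187 by limma), and Havcr2, the checkpoint receptor TIM-3 (-0.59 ± 0.08), were lower. Of 10 Fc and complement receptors 5 were higher and 0 lower (by limma; 0 at an unadjusted p below 0.05). Fcgr3, a low-affinity receptor for IgG, was at 5.31, 4.97, 5.66, 5.86 and 6.68 in the 5 CD11b+ cDC arrays, 9.82, 9.91 and 9.93 in TIM-4- LysoMac and 9.83, 9.81 and 9.89 in TIM-4+ LysoMac. The difference was 4.17 ± 0.24, and C5ar2, a second receptor of C5a, was higher by 0.95 ± 0.10. Of 9 complement components 4 were higher and 0 lower (by limma; 0 at an unadjusted p below 0.05). Cfb, factor B of the alternative pathway, was at 8.18 ± 0.15 in CD11b+ cDC and 11.78 ± 0.13 in LysoMac (3.60 ± 0.09), C2 of the classical pathway differed by 3.03 ± 0.16 and the stabilising factor properdin (Cfp) by 1.11 ± 0.13. C1ra, a serine protease of the first complement complex, was called higher at means of 3.27 in CD11b+ cDC and 3.95 in LysoMac, both below 4.17 (adjusted p = 0.0243 by limma). Its call was lost without CD11b+ cDC replicate 3, TIM-4+ LysoMac replicate 2 or 3, or either subset of CD11b+ cDC. When compared with replicates 4 and 5 alone, 1 receptor and 1 component were lower. The C1q chains had no matched row.

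Antimicrobial effectors were mostly higher in LysoMac where they differed. Of 18 measured effectors 7 were higher and 2 lower, Pglyrp1 being the largest decrease. Acod1, the enzyme that makes the antibacterial metabolite itaconate, was at 6.60, 6.64, 6.74, 7.75 and 8.04 in the 5 CD11b+ cDC arrays, 11.99, 12.10 and 12.03 in TIM-4- LysoMac and 12.07, 11.86 and 11.36 in TIM-4+ LysoMac. It was higher by 4.75 ± 0.27, and CD11b+ cDC replicates 4 and 5 lay above replicates 1 to 3. The pore protein Mpeg1 was higher by 3.39 ± 0.10. Lyz1, a lysozyme, was at 10.10, 10.80, 10.79, 11.07 and 11.53 in the 5 CD11b+ cDC arrays, 13.14, 13.14 and 12.94 in TIM-4- LysoMac and 13.09, 13.08 and 13.10 in TIM-4+ LysoMac, a measured difference of 2.23 ± 0.20. Its near-identical neighbour Lyz2 was at 12.60 ± 0.10 and 12.99 ± 0.09. Both genes in LysoMac lay close to the top of the scale, where the highest mean of any gene was 13.25, so the size of either difference is not exact, and the signal of both genes on shared probes cannot be told apart. Rac2, a GTPase of the oxidase complex, was lower with a difference of -1.02 ± 0.21 (adjusted p = 0.0031 by limma). It differed by -0.66 without CD11b+ cDC replicates 4 and 5 and with a difference of -1.57 without replicates 1 to 3.

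Without any treatment, most of the listed genes that interferon switches on were higher in LysoMac. The list did not hold Ifitm1, the interferon-induced gene described above among the largest decreases in LysoMac. Of 32 measured members 23 were higher and 0 lower (by limma; 2 at an unadjusted p below 0.05), with a median of 0.90, and all 8 measured interferon-inducible GTPases were higher (median 1.54). Irf7, the factor that amplifies type I interferon, was at 5.22, 5.08, 4.75, 5.11 and 5.31 in the 5 CD11b+ cDC arrays, 7.87, 8.04 and 8.23 in TIM-4- LysoMac and 8.22, 8.07 and 7.79 in TIM-4+ LysoMac. It was higher by 2.94 ± 0.12, with Lgals3bp, a secreted glycoprotein, at 3.09 ± 0.21, Rtp4 at 2.35 ± 0.16 and Zbp1, a sensor of Z-form nucleic acid, at 2.32 ± 0.14. The guanylate-binding proteins, which attack vacuoles of intracellular pathogens, were higher by 2.23 ± 0.13 for Gbp7, 1.85 ± 0.09 for Gbp3, 1.67 ± 0.18 for Gbp8 and 1.62 ± 0.21 for Gbp4, although members of this family are alike and probes can be shared. Against CD11b+ cDC replicates 4 and 5 alone, 21 interferon-stimulated genes were higher and 4 lower. Leaving out CD11b+ cDC replicate 1 or TIM-4+ LysoMac replicate 3 gave 1 lower member.

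The letters of the interferon-stimulated response element, GAAANNGAAA on either strand, were in 3.99% of all promoters of the same length and in 3.98% of those of genes with a value here. They were in 11 of 24 promoters of measured interferon-stimulated genes, 9 of 16 of those called higher and 4 of 4 of the GTPases. Bst2 was also a marker of the sort, so the gate can set its difference. The promoters of Bst2, Gbp7 and Gbp3 are shown because these genes had the largest differences among those with a match, which is in capitals.
Bst2 (chr8:71537423-71537722, minus strand): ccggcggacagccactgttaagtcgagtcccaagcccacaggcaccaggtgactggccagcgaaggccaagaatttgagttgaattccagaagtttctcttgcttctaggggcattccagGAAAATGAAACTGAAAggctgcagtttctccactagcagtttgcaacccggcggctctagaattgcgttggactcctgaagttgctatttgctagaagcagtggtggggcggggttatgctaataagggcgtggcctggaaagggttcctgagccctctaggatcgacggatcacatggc
Gbp7 (chr3:142530086-142530385, plus strand): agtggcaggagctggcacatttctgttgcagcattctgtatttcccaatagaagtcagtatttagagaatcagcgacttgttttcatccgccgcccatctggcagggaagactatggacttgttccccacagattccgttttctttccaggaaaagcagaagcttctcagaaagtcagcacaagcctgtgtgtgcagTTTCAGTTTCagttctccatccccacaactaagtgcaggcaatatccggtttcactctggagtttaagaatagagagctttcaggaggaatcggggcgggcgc
Gbp3 (chr3:142559794-142560093, plus strand): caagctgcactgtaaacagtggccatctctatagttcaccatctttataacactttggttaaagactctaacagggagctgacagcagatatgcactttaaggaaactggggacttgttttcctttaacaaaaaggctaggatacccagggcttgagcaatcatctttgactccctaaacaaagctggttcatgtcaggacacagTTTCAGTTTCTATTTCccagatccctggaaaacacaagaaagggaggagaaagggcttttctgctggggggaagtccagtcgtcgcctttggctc
In Bst2 and Gbp3 overlapping matches form 1 longer run.

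Pattern sensors were more often higher than lower. Of 26 sensors 13 were higher and 3 lower, the lower count near the 13.5% of all genes. Tlr4, the receptor of bacterial lipopolysaccharide, was at 4.11, 3.65, 3.69, 4.15 and 4.12 in the 5 CD11b+ cDC arrays, 6.84, 6.87 and 7.07 in TIM-4- LysoMac and 7.14, 7.21 and 7.66 in TIM-4+ LysoMac. All CD11b+ cDC arrays lay below 4.17, and the difference was 3.19 ± 0.13, at least 2.96. Its partner Ly96, the protein MD-2, was higher by 2.99 ± 0.25. The inflammasome sensors Nlrp3 (-0.64 ± 0.13, adjusted p = 0.00397 by limma) and Nlrc4 (-0.36 ± 0.11, adjusted p = 0.0305 by limma) and the peptidoglycan sensor Nod2 (-0.47 ± 0.08, adjusted p = 0.00136 by limma) were lower. The call of Nlrc4 was lost without CD11b+ cDC replicate 1, 5 or TIM-4- LysoMac replicate 1 or TIM-4+ LysoMac replicate 1, 2 (-0.35 to -0.30), without CD11b+ cDC replicates 4 and 5 (-0.37), without CD11b+ cDC replicates 1 to 3 (-0.34) or with trend and robust variance (-0.36). Nlrp3 differed by -0.40 against replicates 4 and 5 alone, and 5 sensors were lower without CD11b+ cDC replicate 3.

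MHC class II genes were lower in LysoMac, which were sorted as class II low, so the gate can set this direction. Of 12 measured genes 9 were lower and 1 higher, and the median was -2.41. Ciita was at 9.24, 9.28, 9.05, 9.32 and 9.51 in the 5 CD11b+ cDC arrays, 5.45, 5.43 and 5.65 in TIM-4- LysoMac and 4.87, 4.75 and 4.76 in TIM-4+ LysoMac. H2-Oa, a chain of the modulator of peptide loading found in B cells and dendritic cells, was at 11.23, 11.24, 11.11, 11.71 and 11.69 in the 5 CD11b+ cDC arrays, 7.42, 7.63 and 7.43 in TIM-4- LysoMac and 7.70, 7.51 and 7.42 in TIM-4+ LysoMac. Its partner chain H2-Ob was lower with a difference of -4.33 ± 0.13, H2-Oa with a difference of -3.88 ± 0.12 and H2-Eb2, a less common class II chain, with a difference of -3.51 ± 0.18. Ctss, the protease that trims the invariant chain, was higher by 0.52 ± 0.10 (adjusted p = 0.00175 by limma), and by 0.29 against replicates 4 and 5 alone. Ifi30, the lysosomal thiol reductase of the pathway (-0.07 ± 0.08), and Marchf1, the ligase that removes class II from the surface (0.37 ± 0.20), were not called. A second member was called higher when CD11b+ cDC replicate 4, or replicates 4 and 5, were left out. The list had the same direction in both LysoMac groups, with a median of -1.37 in TIM-4- and -3.45 in TIM-4+ cells, which share the CD11b+ cDC arrays.

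Class II promoters carry a Y box, here searched as CTGATTGG on either strand. These letters were in 4.7% of all promoters of the same length, in 5.54% of those of genes with a value here, in 4 of 9 promoters of measured class II genes and in 4 of the 6 found for the lower ones. The promoters of H2-Oa, H2-Eb1 and H2-Aa are shown, with the Y box letters in capitals.
H2-Oa (chr17:34092129-34092428, plus strand): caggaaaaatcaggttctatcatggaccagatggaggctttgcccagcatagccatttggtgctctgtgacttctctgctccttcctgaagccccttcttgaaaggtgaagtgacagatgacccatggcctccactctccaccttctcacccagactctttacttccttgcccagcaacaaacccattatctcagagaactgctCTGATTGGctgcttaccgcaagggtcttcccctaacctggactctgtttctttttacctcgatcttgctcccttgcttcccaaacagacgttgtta
H2-Eb1 (chr17:34305617-34305916, plus strand): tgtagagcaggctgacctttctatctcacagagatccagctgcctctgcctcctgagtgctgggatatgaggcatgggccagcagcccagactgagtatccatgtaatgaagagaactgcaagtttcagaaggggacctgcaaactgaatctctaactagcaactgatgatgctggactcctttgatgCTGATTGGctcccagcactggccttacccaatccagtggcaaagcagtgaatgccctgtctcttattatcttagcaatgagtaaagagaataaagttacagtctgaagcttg
H2-Aa (chr17:34287774-34288073, minus strand): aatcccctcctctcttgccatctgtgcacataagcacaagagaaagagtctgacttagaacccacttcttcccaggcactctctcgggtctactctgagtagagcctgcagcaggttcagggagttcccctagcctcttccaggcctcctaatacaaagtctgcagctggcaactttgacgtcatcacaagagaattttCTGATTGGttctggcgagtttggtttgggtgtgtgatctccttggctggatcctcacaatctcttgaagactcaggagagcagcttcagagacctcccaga
The match began at positions -46, -62 and -51 from the start site. The fourth promoter with the letters was that of H2-Eb2.

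MHC class I loading differed little. Of 15 genes 3 were higher and 2 lower, all by less than 2-fold, and the lower count was near the 13.5% of all genes. Tapbp, the tapasin bridge of the loading complex (0.92 ± 0.18, adjusted p = 0.00201 by limma), Canx, the chaperone calnexin (0.55 ± 0.10, adjusted p = 0.00129), and Tap2, a chain of the peptide transporter (0.35 ± 0.10, adjusted p = 0.0192), were higher. The immunoproteasome subunit Psmb9 (-0.28 ± 0.08, adjusted p = 0.024 by limma) and the activator Psme1 (-0.23 ± 0.07, adjusted p = 0.0233) were lower. These counts depended on the arrays: without CD11b+ cDC replicates 4 and 5, 6 were higher and 0 lower, and 0 were lower without CD11b+ cDC replicate 4 or TIM-4- LysoMac replicate 3. The call of Psmb9 was lost without CD11b+ cDC replicate 2, 4 or TIM-4- LysoMac replicate 3 or TIM-4+ LysoMac replicate 1, 3 (-0.27 to -0.25), without CD11b+ cDC replicates 4 and 5 (-0.27), without CD11b+ cDC replicates 1 to 3 (-0.30), with cyclic loess (-0.03) or with quantile normalization (-0.21), that of Psme1 without CD11b+ cDC replicate 4, 5 or TIM-4- LysoMac replicate 3 (-0.22 to -0.20), without CD11b+ cDC replicates 4 and 5 (-0.17), with cyclic loess (-0.01), with quantile normalization (-0.16), with trend and robust variance (-0.23) or without dim genes (-0.23), and that of Tap2 without CD11b+ cDC replicates 4 and 5 (0.23) or with quantile normalization (0.35). Against replicates 4 and 5 alone, Tap2 differed by 0.53, Tapbp by 0.48 and Canx by 0.34.

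Genes of dendritic cell maturation and co-stimulation were lower in LysoMac. Of 27 measured genes 15 were lower and 1 higher (median -0.68). Ccl22, a chemokine that draws regulatory T cells, was at 9.66, 9.55, 10.21, 9.58 and 10.23 in the 5 CD11b+ cDC arrays, 5.72, 4.94 and 6.73 in TIM-4- LysoMac and 4.66, 4.81 and 4.94 in TIM-4+ LysoMac. It was lower with a difference of -4.54 ± 0.27, and in LysoMac the TIM-4- arrays were the more variable. Btla, an inhibitory receptor (-4.25 ± 0.11, at least 4.03), Tnfsf9, the co-stimulatory ligand 4-1BBL (-3.78 ± 0.21, at least 2.85), and the maturation marker Cd83 (-3.26 ± 0.12) were lower too. Vsir, the inhibitory ligand VISTA, was the 1 higher member (2.48 ± 0.14), at 6.56 ± 0.24 in CD11b+ cDC and 9.04 ± 0.23 in LysoMac.

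Chemokines differed in both directions. Of 22 measured chemokines 7 were higher and 3 lower, the lower count near the 13.5% of all genes. Pf4, platelet factor 4 (2.94 ± 0.19), and Ccl19, a ligand of CCR7 (2.76 ± 0.16), were higher, although Ccl19 lies in a region of near-identical copies and its row is less certain than others. Ccl5, a chemokine that attracts T cells, was lower with a difference of -2.29 ± 0.44 (adjusted p = 0.00218 by limma), and Ccl6 with a difference of -0.56 ± 0.12 (adjusted p = 0.00402 by limma). Against replicates 4 and 5 alone 6 were lower. Of 27 receptors for chemokines and migration 11 were lower, 4 higher and 12 not called, with a median of -0.07. Cx3cr1, the fractalkine receptor of gut macrophages, was at 6.84, 6.23, 6.40, 6.52 and 6.56 in the 5 CD11b+ cDC arrays, 10.62, 10.78 and 10.57 in TIM-4- LysoMac and 11.12, 10.68 and 10.80 in TIM-4+ LysoMac. It was higher by 4.25 ± 0.12, with Ccr2, and with Plxnd1, a semaphorin receptor (3.21 ± 0.10), against the lower Ccr7.

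Cytokines and their receptors were higher for 18 of 39 genes and lower for 7. Il1a, interleukin 1α, was at 4.71, 4.40, 4.99, 4.46 and 5.24 in the 5 CD11b+ cDC arrays, 9.62, 9.49 and 9.79 in TIM-4- LysoMac and 9.68, 9.20 and 9.64 in TIM-4+ LysoMac. It was higher by 4.81 ± 0.16, while Il18bp, the soluble inhibitor of interleukin 18, was higher by 4.30 ± 0.08, the growth factor Igf1 by 4.28 ± 0.11 and the platelet-derived growth factor chain Pdgfa by 3.31 ± 0.14. Il1r2, the decoy receptor of interleukin 1, was lower with a difference of -3.27 ± 0.15, Il6 with a difference of -3.17 ± 0.27, at least 2.22, and Ebi3, a chain of interleukins 27 and 35, with a difference of -3.06 ± 0.25. Of 19 genes that support gut homing and IgA, 6 were higher and 5 lower. Aldh1a2, the enzyme that makes the retinoic acid by which dendritic cells imprint gut homing, was at 6.73, 6.70, 7.39, 6.54 and 6.60 in the 5 CD11b+ cDC arrays, 4.68, 4.64 and 4.23 in TIM-4- LysoMac and 4.29, 4.20 and 4.71 in TIM-4+ LysoMac. It was lower with a difference of -2.33 ± 0.16, with Ltb and Il6, whereas Madcam1, an addressin of gut venules, was higher by 1.33 ± 0.13, at least 1.03.

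Integrins and adhesion molecules were lower for 13 of 28 genes and higher for 6. F11r, the junction protein JAM-A (-3.84 ± 0.18), followed Itgae among the lower genes. Vcam1 was at 5.80, 5.60, 5.33, 5.20 and 5.35 in the 5 CD11b+ cDC arrays, 10.15, 10.24 and 10.12 in TIM-4- LysoMac and 10.69, 10.69 and 10.70 in TIM-4+ LysoMac. Higher with it were the tetraspanin Cd81 (4.35 ± 0.26) and the laminin-binding integrin chain Itga6 (0.90 ± 0.09, at least 0.35), the latter from a level near that of unexpressed genes. Matrix proteases and inhibitors were higher for 7 of 16 and lower for 4. Beside Timp2 and Mmp2, the membrane protease Mmp14, which with Timp2 activates pro-Mmp2, was higher by 3.38 ± 0.15 and the decysin Adamdec1, a gene typical of gut macrophages, by 4.20 ± 0.21. Mmp12, the macrophage elastase, was at 8.36 ± 0.25 in CD11b+ cDC and 5.27 ± 0.67 in LysoMac and thus lower with a difference of -3.09 ± 0.20. The serpin Serpinb6b (-2.67 ± 0.23) and the sheddase Adam8 (-2.39 ± 0.14) were lower too.

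Of 21 measured genes of lipid handling and cholesterol efflux 12 were higher and 3 lower. Abca1 was at 4.94, 4.75, 4.61, 4.81 and 4.76 in the 5 CD11b+ cDC arrays, 8.89, 8.97 and 8.96 in TIM-4- LysoMac and 9.47, 9.31 and 8.93 in TIM-4+ LysoMac, and its activator Nr1h3 was at 6.33, 5.90, 6.85, 6.74 and 7.38 in the 5 CD11b+ cDC arrays, 9.87, 9.81 and 10.01 in TIM-4- LysoMac and 10.18, 9.99 and 9.81 in TIM-4+ LysoMac. The acid lipase Lipa (1.72 ± 0.09) and Lpcat2, which makes platelet-activating factor (2.10 ± 0.09), were higher as well. Pltp, a phospholipid transfer protein, was lower with a difference of -0.81 ± 0.25 (adjusted p = 0.0366 by limma) and Mylip, the ligase that degrades the LDL receptor, with a difference of -0.59 ± 0.17 (adjusted p = 0.0243 by limma). With CD11b+ cDC replicates 4 and 5 left out, or CD11b+ cDC replicate 4, replicate 5 or TIM-4+ LysoMac replicate 2 alone, the lower genes of the list numbered 1. Neither the call of Pltp nor that of Mylip held under every alternative: that of Pltp was lost without CD11b+ cDC replicate 4, 5 or TIM-4- LysoMac replicate 1, 2 or TIM-4+ LysoMac replicate 1, 2, 3 (-0.85 to -0.60) or without CD11b+ cDC replicates 4 and 5 (-0.34), and that of Mylip without CD11b+ cDC replicate 4, 5 or TIM-4- LysoMac replicate 3 or TIM-4+ LysoMac replicate 2 (-0.56 to -0.48) or without CD11b+ cDC replicates 4 and 5 (-0.31). Without CD11b+ cDC replicates 1 to 3 the differences were larger, -1.51 for Pltp and -1.01 for Mylip. In cholesterol synthesis 3 of 18 genes were higher and 5 lower. Dhcr7, which completes cholesterol synthesis (1.44 ± 0.28, adjusted p = 0.0023 by limma), Tm7sf2, a sterol reductase (1.32 ± 0.16), and Mvd, a decarboxylase of the mevalonate pathway (0.64 ± 0.12, adjusted p = 0.00142 by limma), were higher, and Idi1 (-1.30 ± 0.16) and Cyp51 (-1.24 ± 0.12) lower. Against replicates 4 and 5 alone Dhcr7 differed by 0.70 and 9 genes were lower.

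Metal handling genes were higher for 12 of 23 and lower for 2 (median 0.65). Hmox1, the oxygenase that opens haem, was at 6.55, 6.44, 6.32, 7.07 and 7.03 in the 5 CD11b+ cDC arrays, 10.24, 9.93 and 10.48 in TIM-4- LysoMac and 10.25, 10.05 and 10.18 in TIM-4+ LysoMac. It was higher by 3.50 ± 0.15, and Blvrb, which acts on the products of haem breakdown, by 2.02 ± 0.23. Mt2, a metallothionein, was higher by 3.57 ± 0.38, but its CD11b+ cDC arrays differed, with means of 6.53 in replicates 1 to 3 and 8.21 in replicates 4 and 5. The copper chaperone Atox1 (-0.77 ± 0.10) and the copper exporter Atp7a (-0.48 ± 0.14, adjusted p = 0.0252 by limma) were lower, in contrast to Cp. The call of Atp7a was lost without CD11b+ cDC replicate 3, 4, 5 or TIM-4- LysoMac replicate 1, 2 or TIM-4+ LysoMac replicate 1 (-0.47 to -0.38), without CD11b+ cDC replicates 4 and 5 (-0.42) or with array weights (-0.40), and Atox1 differed by -0.51 after cyclic loess.

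Glycolysis genes were higher for 5 of 18 and lower for 3, the lower count near the 13.5% of all genes. The phagocyte hexokinase Hk3 (1.88 ± 0.14) and Pfkfb3, which makes the activator of phosphofructokinase (0.89 ± 0.08), were higher, and the platelet-type phosphofructokinase Pfkp (-2.06 ± 0.15), the aldolase Aldoc (-1.82 ± 0.16) and the lactate dehydrogenase chain Ldha (-0.49 ± 0.08) lower. Against replicates 4 and 5 alone the counts were 3 higher and 8 lower, and Ldha differed by -0.29 after cyclic loess. Of 29 respiratory chain genes 0 (by limma; 1 at an unadjusted p below 0.05) were higher and 2 lower, Ndufb3 of complex I (-0.71 ± 0.17, adjusted p = 0.0099 by limma) and Cox7b of complex IV (-0.45 ± 0.13, adjusted p = 0.0279 by limma). This list followed the CD11b+ cDC subset: 4 were higher and 0 lower without replicates 4 and 5, and 0 higher and 14 lower without replicates 1 to 3. The call of Cox7b was lost without CD11b+ cDC replicate 4, 5 or TIM-4- LysoMac replicate 2, 3 or TIM-4+ LysoMac replicate 1 (-0.44 to -0.36), without CD11b+ cDC replicates 4 and 5 (-0.27), with cyclic loess (-0.21) or with array weights (-0.31), and that of Ndufb3 without CD11b+ cDC replicates 4 and 5 (-0.53). Without replicates 1 to 3 Cox7b differed by -0.72.

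Eicosanoid genes differed in both directions. Of 20 genes of eicosanoids and annexins 9 were higher and 6 lower. Tbxas1, the thromboxane synthase, was at 4.86, 5.09, 4.92, 4.90 and 4.92 in the 5 CD11b+ cDC arrays, 8.43, 8.68 and 8.74 in TIM-4- LysoMac and 8.58, 8.77 and 8.46 in TIM-4+ LysoMac, and Alox5ap was at 11.02, 11.01, 10.70, 11.55 and 11.43 in the 5 CD11b+ cDC arrays, 6.64, 6.36 and 6.96 in TIM-4- LysoMac and 4.81, 4.81 and 5.40 in TIM-4+ LysoMac. Ltc4s, the synthase of leukotriene C4 (3.13 ± 0.22), was higher with Tbxas1 (3.67 ± 0.08). Lower with Alox5ap were Anxa1, an annexin that limits inflammation (-4.58 ± 0.12), and Hpgd, the dehydrogenase that inactivates prostaglandins (-2.94 ± 0.25).

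Cell cycle genes were lower in LysoMac. Of 36 measured genes 31 were lower and 2 higher (median -1.04). Mcm4 was at 7.52, 7.34, 7.51, 7.94 and 7.89 in the 5 CD11b+ cDC arrays, 5.90, 5.75 and 5.55 in TIM-4- LysoMac and 5.97, 5.55 and 5.80 in TIM-4+ LysoMac. This subunit of the replicative helicase was lower with a difference of -1.89 ± 0.13, its partner Mcm6 with a difference of -1.84 ± 0.15, the ribonucleotide reductase chain Rrm2 with a difference of -1.76 ± 0.17 and the topoisomerase Top2a with a difference of -1.75 ± 0.16. Top2a differed by -1.11 where all its transcript clusters were averaged. Bub1b, a kinase of the spindle checkpoint, went the other way (1.42 ± 0.11), although its row lies near the end of a matched stretch, and E2f1, a factor of S phase entry, was called at 0.41 ± 0.14 (adjusted p = 0.0468 by limma). The call of E2f1 was lost without CD11b+ cDC replicate 2, 3, 4, 5 or TIM-4- LysoMac replicate 1, 2 or TIM-4+ LysoMac replicate 1, 2, 3 (0.34 to 0.44), without CD11b+ cDC replicates 4 and 5 (0.29), with quantile normalization (0.40) or with trend and robust variance (0.41).

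Immediate early genes, which can be switched on while tissue is digested, were also lower in LysoMac. Of 22 measured genes 17 were lower and 0 higher (by limma; 0 at an unadjusted p below 0.05), with a median of -1.17. Nr4a1 was at 9.79, 9.46, 9.88, 8.63 and 9.27 in the 5 CD11b+ cDC arrays, 4.94, 5.18 and 4.96 in TIM-4- LysoMac and 4.92, 4.70 and 4.73 in TIM-4+ LysoMac. The orphan nuclear receptors Nr4a1, Nr4a3 and Nr4a2 had the largest decreases, of -4.50 ± 0.19, -4.09 ± 0.11 and -3.09 ± 0.19, and the growth regulator Btg2 was lower with a difference of -2.75 ± 0.19. The part of tissue handling in this difference was not tested.

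Markers of other cells formed short lists. In several, among them those of B cells and plasmacytoid dendritic cells, the share called was larger than the 24.9% of all genes. B cell markers had 3 of 6 lower and 1 higher: Cd79b, a chain of the B cell receptor, was higher by 2.17 ± 0.21, while Ms4a1, the antigen CD20, was lower with a difference of -1.44 ± 0.21 and Cd79a, the partner chain of Cd79b, with a difference of -1.35 ± 0.19 (adjusted p = 0.000178 by limma). T cell markers had 2 of 7 lower, Thy1 (-2.19 ± 0.25) and Il2ra, whose means of 4.11 in CD11b+ cDC and 3.24 in LysoMac were both below 4.17, and Cd3e was not called (-0.34 ± 0.16), while 4 were lower against CD11b+ cDC replicates 4 and 5 alone. Plasma cell markers had 1 of 6 higher, Prdm1 (0.78 ± 0.17, adjusted p = 0.00404 by limma), and 1 lower, Mzb1 (-1.14 ± 0.29, adjusted p = 0.0133 by limma), whose call was lost without CD11b+ cDC replicates 4 and 5 (-0.70). Against replicates 4 and 5 alone Prdm1 differed by 0.51 and Mzb1 with a difference of -1.80. Of 7 markers of plasmacytoid dendritic cells 3 were higher and 2 lower, led by the sort marker Bst2 and the inhibitory receptor Lair1 (1.78 ± 0.10). Neutrophil markers had 2 of 9 higher and 1 lower. The receptor Csf3r was higher by 2.47 ± 0.13, and S100a8 by 1.89 ± 0.45 (adjusted p = 0.00815 by limma), while the defining genes Ly6g and Elane were at 2.77 and 4.54 in LysoMac. The S100a8 arrays overlapped, and its call was lost without CD11b+ cDC replicates 1 to 3 (1.84). Epithelial and M cell markers had 4 of 17 lower, led by Epcam and Gp2, the M cell receptor for bacteria (-3.42 ± 0.17, at least 2.51), and 1 higher. Stromal and endothelial markers had Madcam1 higher and Pecam1, which leukocytes also carry, lower (-2.06 ± 0.11), of 15 measured. No mast cell, eosinophil or red cell marker was called (7, 5 and 3 measured); at an unadjusted p below 0.05 the counts were 0 higher and 0 lower, 1 higher and 0 lower, and 0 higher and 0 lower, and no other tool was run. When compared with replicates 4 and 5 alone, 1 marker of each of these cell types was called higher, and without these replicates 1 eosinophil marker was called lower. The part of admixed cells in these differences was not tested.

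Each LysoMac group was also compared with CD11b+ cDC alone. In TIM-4- LysoMac 1491 genes were called higher (8.84%) and 1691 lower (10%), and in TIM-4+ LysoMac 1649 higher (9.77%) and 1873 lower (11.1%). By at least 2-fold these were 686 (4.07%) and 560 (3.32%) in TIM-4- and 720 (4.27%) and 623 (3.69%) in TIM-4+ LysoMac. Both comparisons share the CD11b+ cDC arrays. Of the 1274 genes called at least 2-fold apart over both groups, 1249 were called in the same direction in each group, and 26 were called between the groups.

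In 24 of the 32 genes called between the LysoMac groups, the mean of TIM-4- cells lay between those of CD11b+ cDC and TIM-4+ cells. These genes were chosen by a difference that enters this order, and the share over all genes was not computed. The count is thus only a description of these genes. In the same fit 10 genes were called higher in TIM-4+ cells (0.0593%) and 22 lower (0.13%), and by at least 2-fold 7 (0.0415%) and 19 (0.113%). Plet1, a surface protein of dendritic cells and epithelium, was at 11.92 ± 0.09 in CD11b+ cDC, 8.68 ± 0.30 in TIM-4- LysoMac and 5.54 ± 0.18 in TIM-4+ LysoMac. The 3 groups did not overlap, and TIM-4+ cells were lower than TIM-4- cells, with a difference of -3.13 ± 0.15 (adjusted p = 2.78e-06 by limma). H2-Aa, a chain of the class II molecule I-A, was at 12.10, 12.18, 12.08, 12.40 and 12.38 in the 5 CD11b+ cDC arrays, 10.95, 10.76 and 10.59 in TIM-4- LysoMac and 7.79, 9.37 and 8.43 in TIM-4+ LysoMac. TIM-4+ cells lay below TIM-4- cells, with a difference of -2.24 ± 0.30 (adjusted p = 0.00793 by limma), with H2-Ab1, its partner chain, at -1.94 ± 0.24, H2-Eb1 at -1.97 ± 0.18 and the invariant chain Cd74 at -1.95 ± 0.30. Il1r2 was lower with a difference of -1.99 ± 0.20. Against CD11b+ cDC these genes were lower over both groups, with a difference of -4.80 ± 0.11 for Plet1, -2.58 ± 0.22 for H2-Aa, -2.24 ± 0.18 for H2-Ab1, -3.06 ± 0.14 for H2-Eb1 and -2.14 ± 0.22 for Cd74. The call of H2-Aa was lost without TIM-4- LysoMac replicate 1 (-2.15), and that of Cd74 without any 1 of 6 arrays (CD11b+ cDC replicate 1 or 2, any TIM-4- LysoMac array or TIM-4+ LysoMac replicate 3), at values of -2.10 to -1.84. The Cd74 call was also lost without CD11b+ cDC replicates 4 and 5 or without replicates 1 to 3, which leave the value at -1.95.

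**Figure D4:**
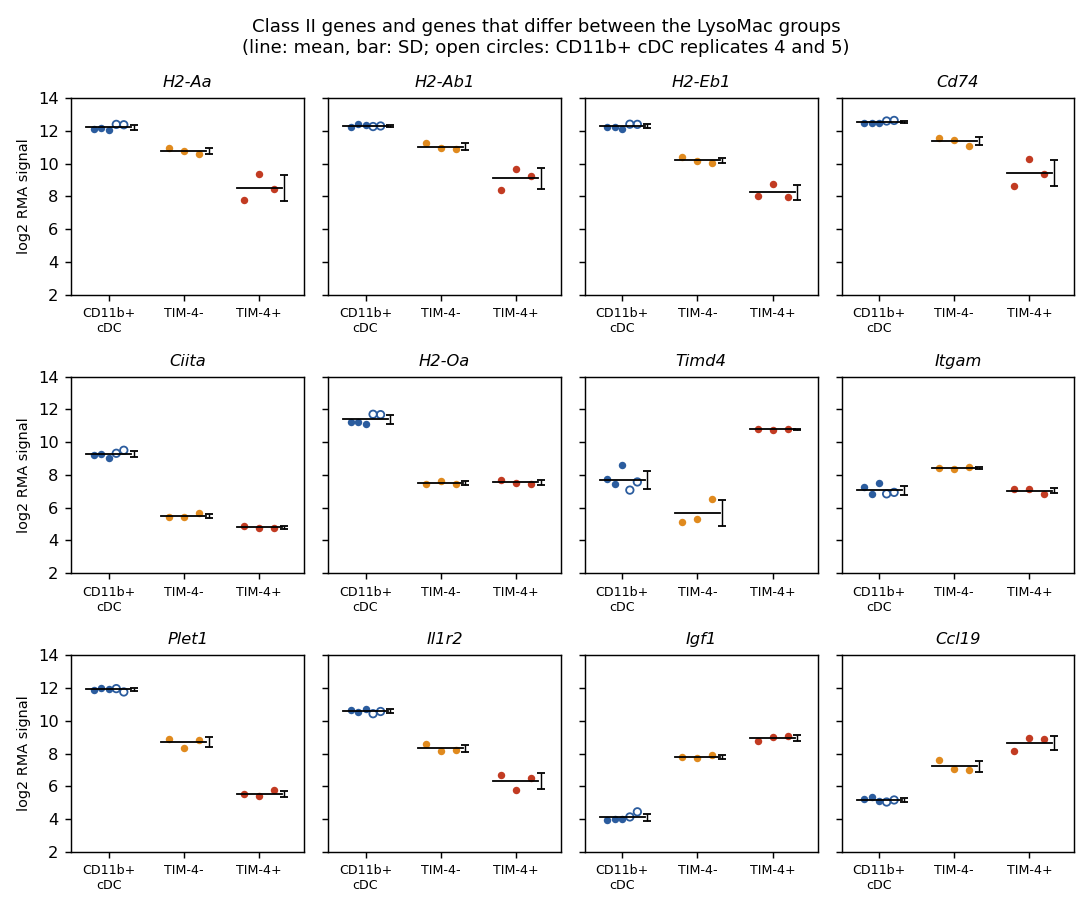
Level of 12 genes in each array (log2 signal; CD11b+ cDC in blue, TIM-4- LysoMac in orange, TIM-4+ LysoMac in red; lines are group means, bars 1 SD, open circles CD11b+ cDC replicates 4 and 5). The class II genes step down from CD11b+ cDC to TIM-4- and TIM-4+ LysoMac except for H2-Oa, which is alike in both LysoMac groups, and Timd4 is lowest in TIM-4- cells.

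In the other direction, Cybrd1, an iron reductase, was higher in TIM-4+ cells by 1.86 ± 0.17, and at 4.10 ± 0.18 in CD11b+ cDC and 4.45 ± 0.32 in TIM-4- cells it lay near the level of unexpressed genes in both of these groups. Over both LysoMac groups it was higher than in CD11b+ cDC by 1.28 ± 0.12, with overlapping arrays. Igf1 was at 3.94, 3.97, 4.00, 4.12 and 4.44 in the 5 CD11b+ cDC arrays, 7.80, 7.70 and 7.94 in TIM-4- LysoMac and 8.74, 9.00 and 9.08 in TIM-4+ LysoMac. It was higher in TIM-4+ than in TIM-4- cells by 1.13 ± 0.14, while the integrin chain Itga6, below 4.17 in every TIM-4- array, was higher by 1.06 ± 0.13, at least 0.88, Ccl19 by 1.44 ± 0.21, Madcam1 by 1.19 ± 0.17 and the efflux pump Abcc3 by 1.36 ± 0.22. Abcc3 was higher over both groups than in CD11b+ cDC by 2.40 ± 0.16. Of the sort markers, Timd4 differed by 5.12 ± 0.39 and Itgam differed by -1.39 ± 0.16. The calls of Ccl19, Madcam1 and Abcc3 were lost without single arrays: Ccl19 without CD11b+ cDC replicates 1 to 3 together (1.44) or without TIM-4- LysoMac replicate 2 or 3 or TIM-4+ LysoMac replicate 2 or 3 (1.30 to 1.36), Madcam1 without any TIM-4- LysoMac array or without TIM-4+ LysoMac replicate 1 or 3 (1.06 to 1.24), and Abcc3 without CD11b+ cDC replicates 1, 2 or 3, TIM-4- LysoMac replicates 1 or 2 or any TIM-4+ LysoMac array (1.12 to 1.49), without CD11b+ cDC replicates 1 to 3 together (1.36) or with cyclic loess (1.34). The count of genes called higher in TIM-4+ cells, 10, fell to 5 without any 1 of the TIM-4- LysoMac arrays and to 6 without TIM-4+ LysoMac replicate 2, and that of genes called lower, 22, fell to 14 without TIM-4- LysoMac replicate 1.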

How the data were processed

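RNA of sorted cells (2 to 20 ng) was amplified and hybridised to Affymetrix Mouse Gene ST arrays, 1 per sample, per the labels' protocols. The deposited values are log2 signals that the authors made by RMA with Affymetrix Expression Console 1.4.1, per the submitters' processing notes. Which genome build they used is not given in the sources used here.

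Columns of the deposited table hold 3 sets of arrays with different row orders, and the row names fit only the R848 arrays. The rows of the untreated CD11b+ cDC, DN cDC and LysoMac arrays were therefore aligned in order to those of the R848 arrays, on mean levels of CD11b+ cDC, with no LysoMac value used. Of 28939 rows aligned (6617 before the first named row were left out), 23268 (80.4%) were accepted. An alignment on the mean of all arrays gave 99.93% of shared rows the same partner, and a control with rows rolled out of place had 606 rows accepted. For 762 genes with more than 1 accepted row, the levels of both rows correlated at 0.833, against 0.150 as deposited. Symbols came from the platform annotation and RefSeq, and 16870 of 19938 genes with a row of their own had a value.

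limma 3.58.1 in R 4.3.3 was fitted to the 11 arrays with 3 groups, and p-values were adjusted by the Benjamini-Hochberg method over 16870 genes. The fit was tested on simulated data with 200 changed genes. The number of arrays limits the precision. Genes and 47 lists (947 genes, 732 with a value) were chosen with earlier results of these data known, so list counts are descriptions. The genes named are the 12 with the largest difference in each direction, the 4 largest called members of each list with up to 3 that went against it (2 in lists of other cells), all sort markers, and the 6 largest in each direction between the LysoMac groups. Other genes named were chosen after their values were seen. Bounds at the level of unexpressed genes were added after the data were seen. Alternatives covered arrays left out, normalization, variance model, dim genes, alignment and thresholds.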

Additional observations from a re-analysis of the deposited data

Results flagged for a closer look

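In 6 of the named genes 1 CD11b+ cDC array stood apart from the other 4. These were Aldh1a2 in replicate 3 (7.39), F11r in replicate 4 (9.66), Pfkfb3 in replicate 5 (9.58), S100a8 in replicate 5 (4.47) and Tbxas1 in replicate 2 (5.09), each the highest, and Gbp3 in replicate 1 (6.55), the lowest. About 1 in 20 groups is marked in this way by chance, and the genes are spread over all 5 arrays.

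The difference from CD11b+ cDC itself differed between the LysoMac groups for 18 named genes, by the limma test of TIM-4+ minus TIM-4- LysoMac. It was higher in TIM-4+ cells for Timd4 (5.12), Cybrd1 (1.86), Ccl19 (1.44), Abcc3 (1.36), Madcam1 (1.19), Igf1 (1.13) and Itga6 (1.06). It was lower for Plet1 (-3.13), H2-Aa (-2.24), Il1r2 (-1.99), H2-Eb1 (-1.97), Cd74 (-1.95), H2-Ab1 (-1.94), Adam8 (-1.76), Alox5ap (-1.65), Itgam (-1.39), Adam23 (-1.07) and Ciita (-0.72). TIM-4 and MHC class II were part of the sort.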

How the results depend on the processing

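Of 186 named genes called between LysoMac and CD11b+ cDC, 172 were called at an adjusted p below 0.05 in every alternative limma fit that gave a value. None of the 188 named genes changed direction. The stricter thresholds, an adjusted p under 0.01 and a 2-fold minimum, were not applied to this count. Counts of genes called over both LysoMac groups were 1018 higher and 1232 lower where only matched stretches of at least 50 rows were used, which tests fewer genes, and 689 and 585 with a 2-fold minimum. In TIM-4- LysoMac these were 787 and 920, and 686 and 560, and in TIM-4+ LysoMac 847 and 1013, and 720 and 623. Without CD11b+ cDC replicates 1 to 3 the lower counts were 3624, 3140 (TIM-4-) and 3256 (TIM-4+), and the cause was not tested. At an adjusted p under 0.01 the lower counts were 1045 in TIM-4- and 1171 in TIM-4+ cells. Between the LysoMac groups, the 10 higher genes became 16 with the DN cDC arrays in the fit, 22 with array weights, 4 with long stretches, 4 at an adjusted p under 0.01 and 5 to 10 with 1 array left out, and the 22 lower genes 37 with array weights, 9 with long stretches and 14 to 26 with 1 array left out. Precision is limited by 3 to 5 arrays per group.

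Deviations of same-numbered replicates correlated at -0.07 to 0.16, not above 0.1 in every pair, so the numbers were not used to pair the samples. With the replicate number as a block, 2028 genes were called higher and 1957 lower over both LysoMac groups, and 9 and 20 between them. Replicate numbers 4 and 5 exist only for CD11b+ cDC, so the block takes these arrays out of the difference from LysoMac. Pltp, for example, differed by -0.34 with the block and also without CD11b+ cDC replicates 4 and 5. Calls lost with the block are thus no separate test of pairing. The calls of Ccl19, Madcam1, Abcc3, Cd74 and H2-Ab1 between the LysoMac groups were lost with the block, as were those of Atp7a, Cox7b, E2f1, Mylip, Mzb1, Ndufb3, Nlrc4, Pltp, Psme1, Slc38a9 and Tap2 between LysoMac and CD11b+ cDC.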
